A study of Mus musculus with 15 samples.

Results

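Expression of 10 genes that mark Langerhans cells and dendritic cells was followed through ultraviolet-induced actinic keratosis in mouse skin and its treatment with GZ21T. The genes were Cd207, Epcam, Itgax, Flt3, Zbtb46, Batf3, Irf8, Clec9a, Cd209a and Fscn1. They were selected by symbol, and all 10 were found among the 24027 symbols of each of the authors' 4 deposited tables. Total RNA of the skin was sequenced in SKH1 females, which are hairless mice. Mice aged 6 to 8 weeks received ultraviolet B at 500 J/m2 on 5 days per week for 10 weeks, and 0.25 g of a cream on 5 days per week.

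The labels define 5 groups of 3 libraries each. Irradiated mice given GZ21T cream gave lesional skin. Irradiated mice given placebo cream gave lesional skin, the perilesional skin beside it, non-lesional skin, and skin not exposed to UV. Every group thus comes from mice of the same strain, sex, age and irradiation schedule, and the 4 placebo sites carry the same numbers, Control 1 to 3. Whether libraries of a group come from different animals is not said in the labels, and the spread behind each p-value may then be technical. The file headers call the non-UV group back skin, so exposure and body site cannot be told apart wherever that group is the reference. All 5 epidermal markers looked up, namely Krt5, Krt14, Krt10, Krt1 and Ivl, had an adjusted p in all 4 tables. The tables hold fold changes and test results, with no value per library, so the depth is unknown and the number of libraries that show a change cannot be given. Each log2 fold change is therefore given with its standard error (SE) or its 95% interval, as tested group over reference. In bulk skin, fewer cells of a type and less RNA per cell cannot be told apart.

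Langerhans cells are the resident antigen-presenting cells of the epidermis. They take up antigen through langerin, the product of Cd207, are held among keratinocytes by adhesion molecules, and leave for the lymph node when activated, a departure that ultraviolet light is known to provoke. Dermal dendritic cells arise from precursors that need the receptor tyrosine kinase Flt3. They divide into a type 1 lineage, which depends on the transcription factors Batf3 and Irf8 and carries Clec9a, and a type 2 lineage, of which Cd209a is a marker. Mature, migrating dendritic cells of every kind make fascin, the actin-bundling protein encoded by Fscn1.

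The promoters of Fscn1, Cd207 and Epcam are shown, because these were the members called in any contrast, Fscn1 in a deposited table and all 3 under some choice of SE. Each is the 250 bases before the RefSeq start of the gene on its own strand, GRCm38.p6. Capitals mark the AP-1 site TGANTCA, searched on both strands.
Fscn1 (chr5:142960105-142960354, plus strand): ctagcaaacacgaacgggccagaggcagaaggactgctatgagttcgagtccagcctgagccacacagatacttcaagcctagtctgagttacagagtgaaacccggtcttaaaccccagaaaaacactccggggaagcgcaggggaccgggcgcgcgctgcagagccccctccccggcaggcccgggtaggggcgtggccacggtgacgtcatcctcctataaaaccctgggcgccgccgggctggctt
Cd207 (chr6:83677858-83678107, minus strand): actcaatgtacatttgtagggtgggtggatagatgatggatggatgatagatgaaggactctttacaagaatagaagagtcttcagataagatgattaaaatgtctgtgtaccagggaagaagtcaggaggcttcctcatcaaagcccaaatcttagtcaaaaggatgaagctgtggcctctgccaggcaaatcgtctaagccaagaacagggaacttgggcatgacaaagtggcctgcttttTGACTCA
Epcam (chr17:87635729-87635978, plus strand): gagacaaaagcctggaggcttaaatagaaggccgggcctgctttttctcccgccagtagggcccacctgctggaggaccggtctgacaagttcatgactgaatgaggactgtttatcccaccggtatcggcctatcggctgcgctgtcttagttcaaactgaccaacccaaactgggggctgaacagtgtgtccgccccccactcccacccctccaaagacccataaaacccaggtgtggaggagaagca
The AP-1 letters were present in 6.75% of 32851 such windows and in the windows of 3 of the 10 members, Cd207, Itgax and Zbtb46. The Zbtb46 window, 181424389 to 181424638 on the minus strand, lies inside the annotated span of the gene, 181387762 to 181459426. Its AP-1 letters thus do not lie before the outermost annotated start of Zbtb46. The interferon response element, written as GAAA, 2 free bases and GAAA, was in 2.98% of all windows and the PU.1 core GAGGAAGT in 2.44%, and both were in the windows of 0 members. The E-box CACGTG was in 6.02% of windows and in that of Batf3 alone among the members. The Batf3 window, 191098164 to 191098413, also lies inside its gene's annotated span, 191097847 to 191108945. The Cd207 site ends at the base before the start of transcription, whereas the windows of Fscn1 and Epcam held none of the 4 motifs.

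Among the 40 member values in the 4 deposited tables, some of which have no adjusted p, 1 passed a DESeq2 adjusted p of 0.05. Fscn1 was higher in placebo lesions than in non-UV skin, a comparison that called 18.3% of all 15201 tested genes. The other 9 members did not pass in any deposited table, at intervals that for some genes still allow changes of many fold. The plot of log2 fold changes in the deposited comparisons shows these values together.

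**Figure D1:**
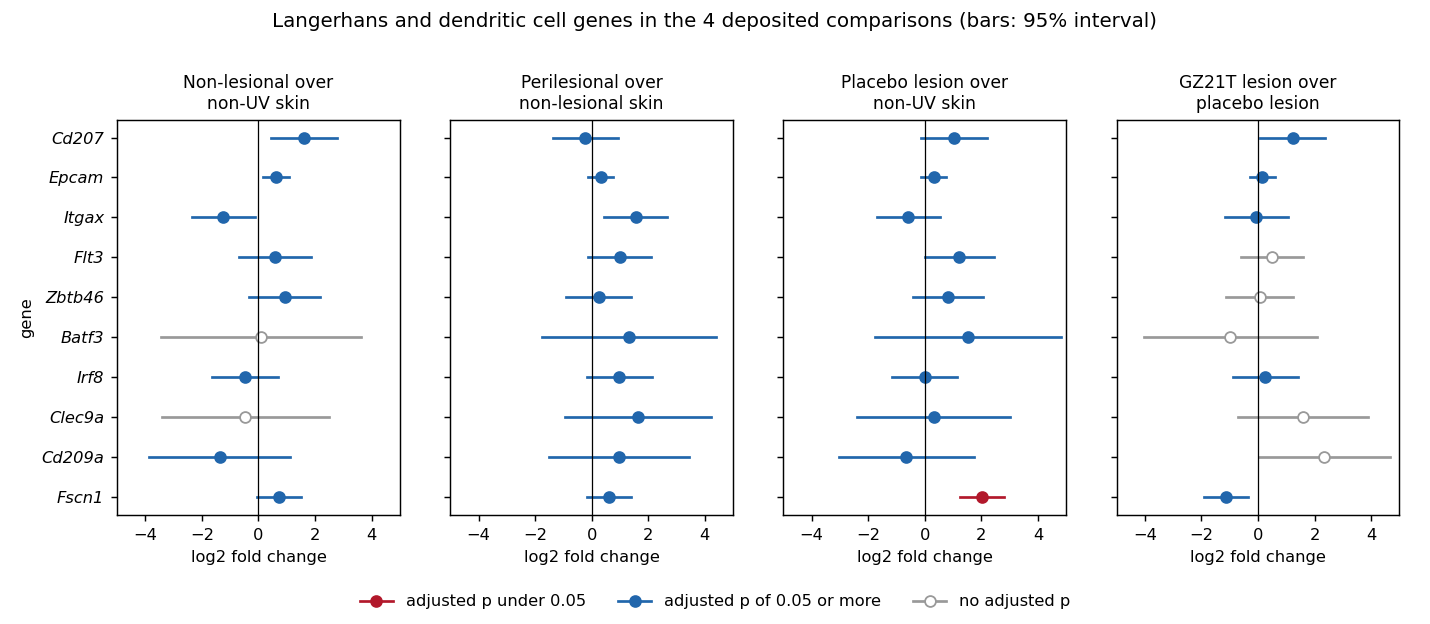
Log2 fold change of each gene (x axis) in the authors' 4 deposited tables, with points for the estimate and bars for the 95% interval. Fscn1 in placebo lesions over non-UV skin, at 2.02, is the single red point, open grey points lack an adjusted p, and the bars of Batf3 and Clec9a are the widest in the 3 comparisons within placebo mice.

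Which members could be tested differed between tables, because the authors' filter withheld the adjusted p of genes with few reads. Perilesional over non-lesional skin and placebo lesions over non-UV skin gave all 10 members an adjusted p. In non-lesional over non-UV skin Batf3 and Clec9a lacked one. In GZ21T over placebo lesions 5 members lacked one: Flt3, Zbtb46, Batf3, Clec9a and Cd209a. The sets of tested genes were nested, with 10899 genes inside 14124 inside 15201, so the members fall into steps of mean read number that do not correct for gene length. Cd207, Epcam, Itgax, Irf8 and Fscn1 were in the top step, Flt3, Zbtb46 and Cd209a in the middle one, and Batf3 and Clec9a in the lowest.

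The median SE over all genes differed between these steps. In placebo lesions over non-UV skin its median was 0.27 among genes with 4 adjusted p-values, 0.76 among those with 3 and 1.46 among those with 2. Epcam had an SE of 0.23 and Fscn1 one of 0.40 there, whereas Clec9a had 1.38 and Batf3 1.67. Cd207 at 0.60, Irf8 at 0.59 and Itgax at 0.56, in the top step, were close to Flt3 at 0.62 and Zbtb46 at 0.64 in the middle one, where Cd209a had 1.22. The least significant gene called in that table lay 2.61 SE from 0. Epcam would thus have needed a log2 fold change of 0.59 to be called, Cd207 one of 1.56, Clec9a one of 3.60 and Batf3 one of 4.35. For the 3 lineage genes with the widest SE, Batf3, Clec9a and Cd209a, smaller changes were not detectable at these SEs.

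**Figure D2:**
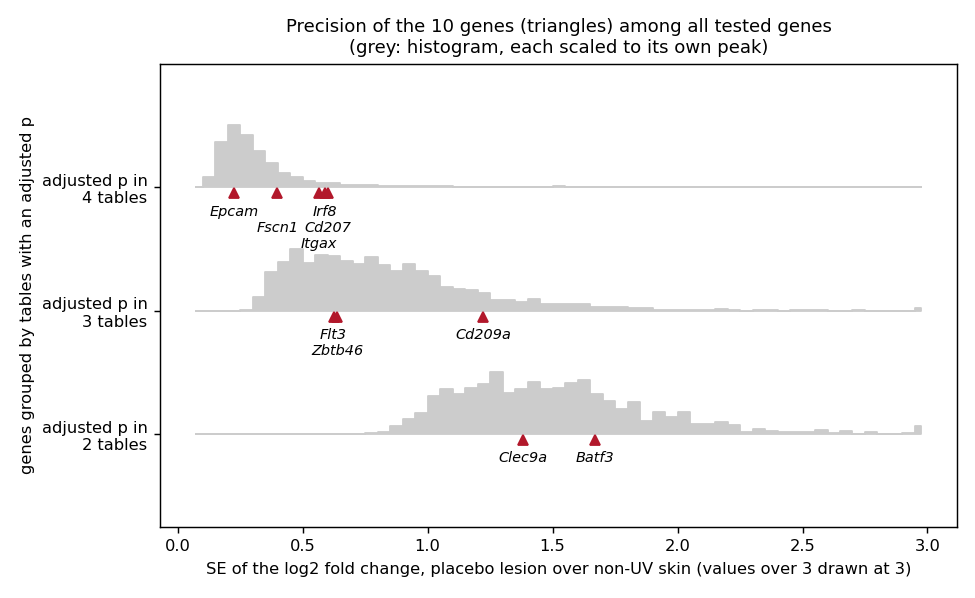
SE of the log2 fold change in placebo lesions over non-UV skin (x axis) for all tested genes (grey histograms, each scaled to its own peak) and for the 10 genes (red triangles), in rows by the number of tables with an adjusted p. Epcam at 0.23 and Fscn1 at 0.40 lie to the left and Clec9a at 1.38 and Batf3 at 1.67 to the right.

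Fscn1 rose in placebo lesions to 4.06 times its level in non-UV skin. It lies at chromosome 5, 142960343 to 142973185, plus strand, of GRCm38. The authors' deposited table gives a log2 fold change of 2.02 ± 0.40 (SE; DESeq2 adjusted p = 3.37e-05) for lesional over non-UV skin, where 18.3% of all 15201 tested genes were called, 10.2% higher and 8.17% lower. For GZ21T over placebo lesions the authors' deposited table, turned in sign, gives -1.12 ± 0.39 (adjusted p = 0.0713), a fold of 0.46 with a 95% interval of 0.27 to 0.78. That value misses the threshold in a table that called 3.61% of 10899 genes. Both comparisons contain the same placebo lesion libraries. With the null spread of the Wald statistic estimated from all genes, 1.92 in place of 1, the lesional over non-UV call of Fscn1 was lost (adjusted p = 0.72), and 11 genes were called in place of 2785.

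The steps in between were smaller than the threshold could resolve. Non-lesional over non-UV skin stood at 0.72 ± 0.40 for Fscn1 (adjusted p = 0.571) and perilesional over non-lesional skin at 0.62 ± 0.39 (adjusted p = 0.761), per the authors' deposited tables. Lesional over perilesional skin, derived from 3 of the tables, stood at 0.68 ± 0.39 (adjusted p = 0.551). Relative to non-UV skin the log2 levels of Fscn1 were 0.72 in non-lesional skin, 0.90 in GZ21T lesions, 1.34 in perilesional skin and 2.02 in placebo lesions. The non-UV group was thus the lowest and the placebo lesion the highest, and these were the pair called above. Each neighbouring pair in that order was within 1.96 SE, but neighbours are the closest pairs by selection.

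Some pairs of groups share no table, and for these the SE is bounded but not fixed by the deposited values. The upper bound counts the variance of the shared group in both terms. If groups are independent it is thus wider than the SE, by an amount that the deposited values do not fix. With the upper bound of the SE, perilesional over non-UV skin gave Fscn1 1.34 ± 0.56 (normal-tail adjusted p = 0.349), in a contrast that called 0.625% of 15190 genes. With the SE from the negative binomial variance formula, fitted to the 4 deposited SEs after the data were seen, the same difference was 1.34 ± 0.40 (adjusted p = 0.0167), in a contrast that called 8.25% of genes. The larger of the deposited SEs gave 7.95%. Placebo lesional over non-lesional skin gave Fscn1 1.30 ± 0.57 with the upper bound (adjusted p = 0.655) and 1.30 ± 0.39 with the formula (adjusted p = 0.0305). The upper bound called 0% of 15192 genes in that contrast, with 1063 at an unadjusted normal-tail p under 0.05. There the formula called 4.78% and the larger deposited SE 4.18%. Those calls therefore depend on the SE used.

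Over the 4 groups relative to non-UV skin, the 3 genes closest to Fscn1 by Euclidean distance among 10899 genes were the histone gene Hist1h2an at 0.08, Serinc2 at 0.17 and Rrm2, a subunit of ribonucleotide reductase, at 0.18. The distance rests on 4 log2 levels per gene that share libraries.

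Cd207, which encodes langerin, had its lowest level in non-UV skin. It lies at chromosome 6, 83671215 to 83677857, minus strand. The authors' deposited table gives 1.60 ± 0.60 for non-lesional over non-UV skin (adjusted p = 0.198), a fold of 3.03 with a 95% interval of 1.35 to 6.84. Its unadjusted p was 0.00747, and 1.66% of 14124 genes were called in that table. Lesional over non-UV skin stood at 1.03 ± 0.60 for Cd207 (adjusted p = 0.229) and perilesional over non-lesional skin at -0.22 ± 0.58 (adjusted p = 0.969), per the authors' deposited tables. Perilesional over non-lesional skin was the quietest table, with 0.112% of 15201 genes called.

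The level of Cd207 was highest in GZ21T lesions. For GZ21T over placebo lesions the authors' deposited table, turned in sign, gives Cd207 1.23 ± 0.58 (adjusted p = 0.182), a fold of 2.34 with an interval of 1.06 to 5.18. GZ21T lesions over non-UV skin stood at 2.26, a fold of 4.78. The SE of that difference was 0.84 at its upper bound (adjusted p = 0.387) and 0.59 by the variance formula (adjusted p = 0.00851), so the call rests on the SE. The upper bound called 0.382% of 15192 genes there, the formula 3.77% and the larger deposited SE 3.28%. GZ21T lesions over non-lesional skin, whose SE is fixed by the tables, gave 0.66 ± 0.58 (adjusted p = 0.999922), and that contrast called 0% of 15187 genes, with 503 at an unadjusted normal-tail p under 0.05.

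Epcam encodes an adhesion molecule of Langerhans cells that hair follicle and sebaceous epithelium also express. It lies at chromosome 17, 87635979 to 87651129, plus strand, and was the most precisely measured member. The authors' deposited tables give 0.62 ± 0.23 for non-lesional over non-UV skin (adjusted p = 0.176), 0.31 ± 0.22 for perilesional over non-lesional skin (adjusted p = 0.806) and 0.31 ± 0.23 for lesional over non-UV skin (adjusted p = 0.362). The highest level was in perilesional skin, at 1.91 times that of non-UV skin. That difference was 0.94 ± 0.32 with the upper bound (adjusted p = 0.157) and 0.94 ± 0.23 with the variance formula (adjusted p = 0.00173), so this call too rests on the SE. In the same contrast 1 of the 10 hair and sebaceous markers was called higher, Krt17, at the upper bound of the SE. That bound called 0.625% of 15190 genes there. The 10 markers had a median of 1.32 against 0.02 for all tested genes. Their median was -0.31 in non-lesional over non-UV skin, where Epcam was positive at 0.62. It was 0.93 in perilesional over non-lesional skin and 0.49 in lesional over non-UV skin.

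In lesional over perilesional skin Epcam stood at -0.63 ± 0.22, a fold of 0.65 (adjusted p = 0.2), in a derived contrast that called 0.533% of 15187 genes. GZ21T over placebo lesions gave 0.15 ± 0.23 in the authors' deposited table, turned in sign (adjusted p = 0.738). The 95% interval of that fold ran over 0.82 to 1.51, and on the log2 scale it was the narrowest of any member in that comparison.

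**Figure D3:**
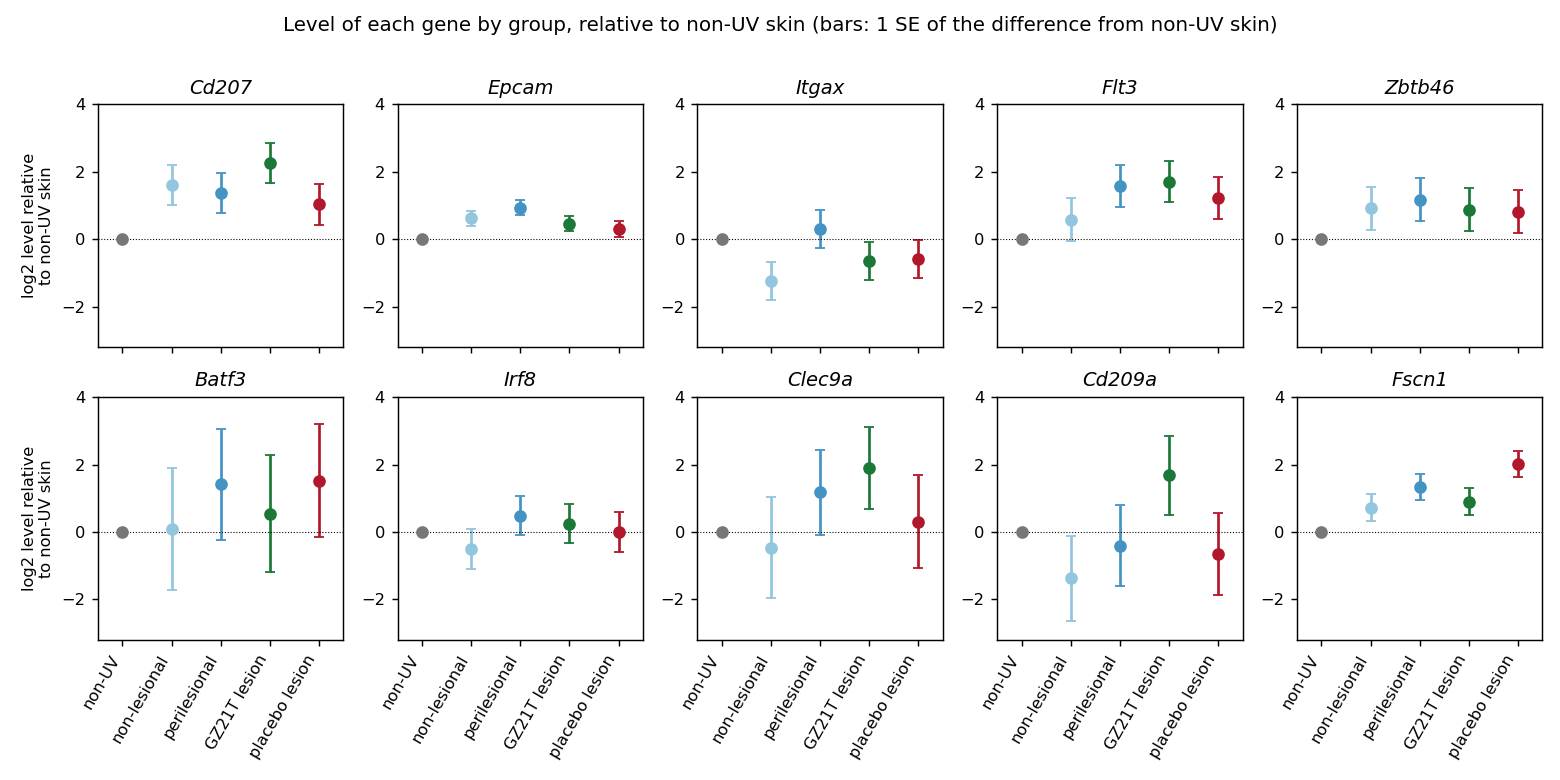
Log2 level of each gene relative to non-UV skin (y axis) in the 5 groups (x axis), with bars for 1 SE of the difference from non-UV skin, from the deposited tables for non-lesional skin and placebo lesions and from the variance formula for perilesional skin and GZ21T lesions. Cd207 is highest in GZ21T lesions at 2.26, Epcam in perilesional skin at 0.94 and Fscn1 in placebo lesions at 2.02.

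Itgax, Flt3 and Zbtb46 are shared by dendritic cells of several kinds, and none of them was called in a deposited table. Itgax encodes the integrin CD11c, which many macrophages carry as well. The authors' deposited tables give it -1.25 ± 0.57 for non-lesional over non-UV skin (adjusted p = 0.384) and 1.56 ± 0.57 for perilesional over non-lesional skin (adjusted p = 0.378). The non-lesional libraries enter these comparisons with opposite sign, and their level of Itgax was the lowest of the 5 groups. Lesional over non-UV skin, which leaves them out, stood at -0.58 ± 0.56 (adjusted p = 0.508), per the authors' deposited table, and GZ21T over placebo lesions at -0.06 ± 0.57 (adjusted p = 0.97).

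Flt3, the receptor that sustains dendritic cell precursors, stood at 1.22 ± 0.62 in lesional over non-UV skin (adjusted p = 0.16), per the authors' deposited table. In log2 units above non-UV skin it stood at 0.58 in non-lesional skin, 1.22 in placebo lesions, 1.58 in perilesional skin and 1.71 in GZ21T lesions. GZ21T over placebo lesions gave 0.49 ± 0.56 in the authors' deposited table, with an unadjusted p of 0.379 and no adjusted p. Its ligand gene Flt3l stood at -0.20 ± 0.48 in lesional over non-UV skin (adjusted p = 0.813), per the authors' deposited table. Zbtb46, a transcription factor of the conventional dendritic lineage, was 0.82 ± 0.64 in lesional over non-UV skin (adjusted p = 0.393) and 0.06 ± 0.61 in GZ21T over placebo lesions (unadjusted p = 0.917, no adjusted p), per the authors' deposited tables. The annotated antisense transcript Gm26597 overlaps Flt3, and the small nuclear RNA gene Gm22708 overlaps Zbtb46 on the same strand. The library kit keeps strand, but use of strand in the counting is not stated.

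The type 1 lineage genes were the least certain. Batf3 stood at 1.53 ± 1.67 in lesional over non-UV skin (adjusted p = 0.562), with a fold interval of 0.30 to 27.8 in the authors' deposited table. Clec9a, a receptor for dying cells, stood at 0.31 ± 1.38 in lesional over non-UV skin (adjusted p = 0.906) and at 1.60 ± 1.18 in GZ21T over placebo lesions (unadjusted p = 0.174, no adjusted p), per the authors' deposited tables. Its span overlaps Clec1b and Gm43914 on the same strand. Irf8, which monocytes and B cells also need, had a narrower SE. It is overlapped by Gm20388 on the same strand. It stood at -0.0047 ± 0.59 in lesional over non-UV skin (adjusted p = 0.997) and at 0.26 ± 0.59 in GZ21T over placebo lesions (adjusted p = 0.849), per the authors' deposited tables. Its fold interval for lesional over non-UV skin was 0.45 to 2.22, so a change of either sign by a factor of 2 remained possible.

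Cd209a, the type 2 marker, had the largest GZ21T estimate of the 10 genes and one of the widest intervals. The authors' deposited table, turned in sign, gives 2.34 ± 1.18 for GZ21T over placebo lesions, a fold of 5.07 with an interval of 1.01 to 25.4. The unadjusted p was 0.048 and no adjusted p was given. GZ21T lesions over non-lesional skin, derived from 3 tables, gave 3.06 ± 1.23 with an unadjusted interval of 0.65 to 5.47, and 0% of genes passed the adjustment there. Lesional over non-UV skin stood at -0.66 ± 1.22 (adjusted p = 0.752), per the authors' deposited table. Close relatives of Cd209a lie in the same gene cluster, and the handling of reads shared with them is not stated.

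The counts of called members stand here beside those of all tested genes. In non-lesional over non-UV skin 0 of the 8 members with an adjusted p passed the DESeq2 test, against 1.66% of all genes. At an unadjusted p under 0.05 there were 3 members, beside 1415 of all 14124 genes. In perilesional over non-lesional skin 0 of 10 passed DESeq2, with 1 at an unadjusted p under 0.05, beside 1190 of 15201 genes. In lesional over non-UV skin 1 of 10 passed, against 18.3% of all genes. In GZ21T over placebo lesions 0 of the 5 with an adjusted p passed, against 3.61%. Of those members Cd207 and Fscn1 had an unadjusted p under 0.05 there, beside 2498 of the 10899 genes with an adjusted p. Cd209a also had an unadjusted p under 0.05, but it has no adjusted p and lies outside those genes. Lesional over perilesional skin gave 0 of 10 by the normal-tail test, with 1 at an unadjusted p under 0.05, beside 1590 of 15187 genes.

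Median log2 fold changes of all 10 members, with or without an adjusted p, stood beside those of all genes with an adjusted p as follows. They were 0.34 against -0.02 in non-lesional over non-UV skin and 0.97 against 0.03 in perilesional over non-lesional skin. In lesional over non-UV skin they were 0.56 against 0.08. In GZ21T over placebo lesions they were 0.21 against -0.06, and in lesional over perilesional skin -0.36 against 0.05. In perilesional over non-UV skin they were 1.18 against 0.02 and in GZ21T lesions over non-UV skin 0.89 against -0.01, with 9 of 10 members positive in each. In perilesional over non-lesional skin 9 of 10 members had a positive value, the exception being Cd207. Ordered by level, the 10 genes gave 40 neighbouring pairs of groups, of which 0 differed by more than 1.96 SE, with the upper bound of the SE where the tables do not fix it. Neighbours in such an order are the closest pairs by selection, so this count does not show that the groups were alike.

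Companion genes of the same cells were read from lists. In lesional over non-UV skin 10.2% of all 15201 tested genes were higher and 8.17% lower, with a median of 0.08. Langerhans companions had 1 of 5 tested genes called there, with a list median of 0.16. Cd24a, which keratinocytes and follicle cells also express, was higher by 1.90 ± 0.53 (adjusted p = 0.00456), per the authors' deposited table. Of 12 genes for Langerhans cell development 0 were called by DESeq2 in any deposited table. Il34, the keratinocyte cytokine that maintains these cells, stood at -1.30 ± 0.50 in lesional over non-UV skin (adjusted p = 0.0506) and at 1.06 ± 0.50 in GZ21T over placebo lesions (adjusted p = 0.18), per the authors' deposited tables. Ahr, a ligand-activated transcription factor, stood at -0.55 ± 0.24 in lesional over non-UV skin (adjusted p = 0.0848) there.

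Of the 8 type 1 companions 1 was called in lesional over non-UV skin, where 10.2% of all tested genes were higher and 8.17% lower. Xcr1, the chemokine receptor of that lineage, was higher by 4.53 ± 1.60 (adjusted p = 0.0309), per the authors' deposited table. Of 7 tested type 2 companions 1 was called there, Irf4, a transcription factor of that lineage and of lymphocytes and melanocytes, at -1.70 ± 0.60 (adjusted p = 0.03), per the authors' deposited table. Maturation and migration genes had 1 of 13 higher, the costimulatory ligand Cd86 at 1.47 ± 0.50 (adjusted p = 0.0243), per the authors' deposited table. Ccr7, which guides mature dendritic cells to the lymph node, stood at 2.43 ± 0.98 (adjusted p = 0.0651) there, and Lamp3 had no value. These companions, like Fscn1, rest on the non-UV group as reference. At the shares called over all genes, a count of 1 in lists of this size is not a result about the list. List medians in lesional over non-UV skin were 0.90 for type 1 companions, -0.18 for type 2 companions and 0.005 for maturation and migration genes.

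Plasmacytoid dendritic cell genes had 1 of 11 higher in lesional over non-UV skin, where 10.2% of all tested genes were higher. It was Bst2, which interferon also induces, at 1.98 ± 0.66 (adjusted p = 0.022), per the authors' deposited table. Siglech, the more specific marker, stood at 1.12 ± 1.15 (adjusted p = 0.53) there. Growth factor genes had 1 of 7 higher, Nfil3, a transcription factor that many stressed cells also express, at 1.78 ± 0.43 (adjusted p = 0.00111), per the authors' deposited table. List medians in lesional over non-UV skin were 0.59 for plasmacytoid and -0.20 for growth factor genes. Of 9 recruitment genes 0 were called by DESeq2 in a deposited table. Among them Ccl2, a monocyte attractant, stood at 1.42 ± 0.73 in lesional over non-UV skin (adjusted p = 0.165), per the authors' deposited table. Non-lesional over non-UV skin gave Ccr6, the receptor for Ccl20, 2.04 ± 0.83 (adjusted p = 0.277), per the authors' deposited table.

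Class II antigen presentation genes are shared by Langerhans cells, dendritic cells, macrophages and B cells. Of 9 such genes 4 were higher and 0 lower in lesional over non-UV skin, where 10.2% of all genes were higher, with a median of 1.38 against 0.08 for all tested genes. H2-Ab1 was higher by 1.74 ± 0.46 (adjusted p = 0.00284), H2-Eb1 by 1.48 ± 0.41 (adjusted p = 0.00437), the invariant chain Cd74 by 1.53 ± 0.50 (adjusted p = 0.0174) and the class II transactivator Ciita by 1.38 ± 0.45 (adjusted p = 0.0185), per the authors' deposited table. In non-lesional over non-UV skin 1 of 9 was higher, beside 1.66% of 14124 genes called. It was Ciita at 1.53 ± 0.45 (adjusted p = 0.0425), per the authors' deposited table. In GZ21T over placebo lesions 0 of 8 tested passed DESeq2. In all 9 lists, 0 companion genes were called in GZ21T over placebo lesions or in perilesional over non-lesional skin. The plot of companion genes sets lesions beside the response to GZ21T.

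**Figure D4:**
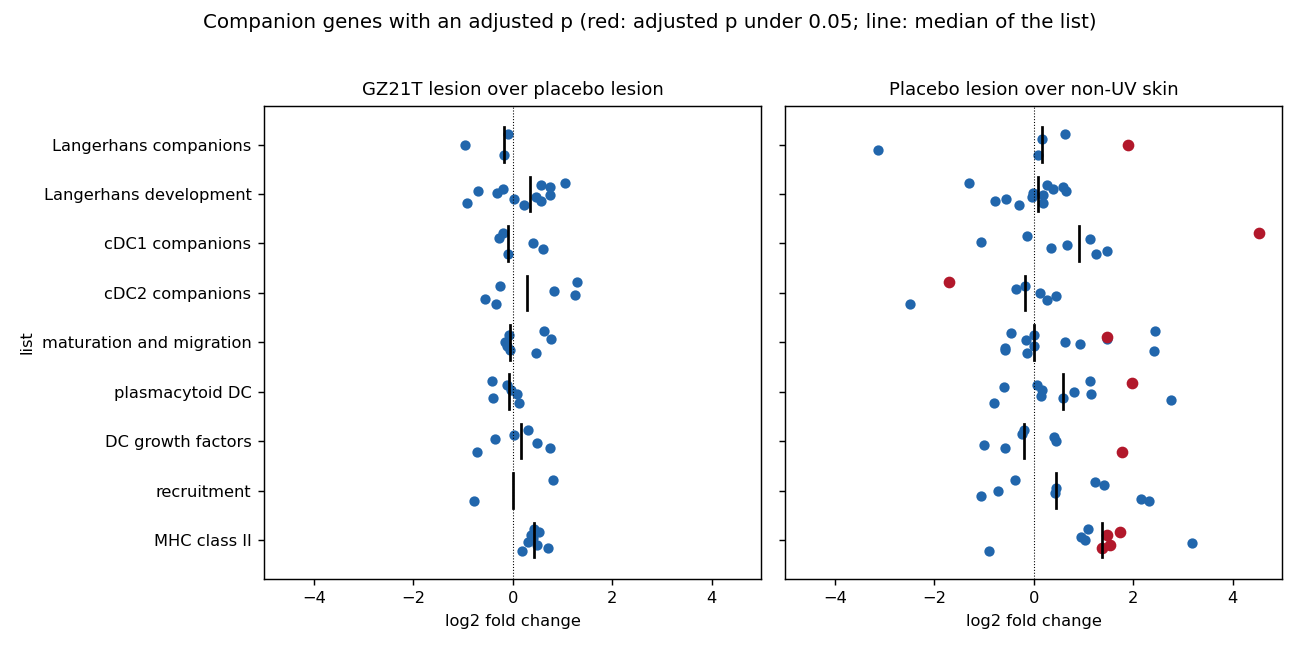
Log2 fold change (x axis) of companion genes with an adjusted p, in rows by list, for GZ21T lesions over placebo lesions (left) and placebo lesions over non-UV skin (right), from the authors' deposited tables. Points are genes, red ones have an adjusted p under 0.05 and black lines are list medians; the 4 red class II genes lie between 1.38 and 1.74, and the left panel has no red point.

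Markers of other cells moved in the same comparisons. In lesional over non-UV skin, where Fscn1 rose and 10.2% of all genes were higher, 2 of 6 endothelial and fibroblast markers were higher. Cells of this list can also express fascin. The 2 were the endothelial genes Kdr at 3.73 ± 1.13 (adjusted p = 0.0103) and Pecam1 at 2.50 ± 0.96 (adjusted p = 0.0493), per the authors' deposited table. The list median was 2.17, and Cdh5 and the fibroblast markers Col1a1, Pdgfra and Dcn were not called. In GZ21T over placebo lesions, where the Fscn1 value was negative, 0 of the 6 passed the DESeq2 test and their median was -0.91. Of 10 markers of hair follicle and sebaceous cells, which express Epcam, 3 were higher in lesional over non-UV skin, with a list median of 0.49. Among them were Krt17 at 2.08 ± 0.28 (adjusted p = 5.07e-11) and Scd1 at 2.10 ± 0.72 (adjusted p = 0.0247), per the authors' deposited table. Krt17 was also the 1 list gene called in non-lesional over non-UV skin, where the list median was -0.31, so its rise does not stand for the list. In perilesional over non-lesional skin 1 of 10 was higher, beside 0.112% of 15201 genes called. It was Elovl3 at 3.52 ± 0.83 (adjusted p = 0.0301), per the authors' deposited table.

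Of 13 macrophage markers with values 12 were tested in non-lesional over non-UV skin and 2 were lower there, beside 1.66% of 14124 genes called. The authors' deposited table gives Trem2 -3.19 ± 0.78 (adjusted p = 0.00564) and Cd68 -2.23 ± 0.57 (adjusted p = 0.0104), beside the Itgax value of -1.25. The macrophage list median was -0.77 there and 0.91 in perilesional over non-lesional skin, where 0 genes of the list were called. General leukocyte markers had 0 of 5 called by DESeq2 in any deposited table, with medians of -0.30 in non-lesional over non-UV skin and 0.88 in perilesional over non-lesional skin. Laptm5 stood at 1.14 ± 0.53 (adjusted p = 0.59) and Coro1a at 0.88 ± 0.49 (adjusted p = 0.692) in perilesional over non-lesional skin in the authors' deposited table. Of 7 lymphocyte markers only 3 had an adjusted p in lesional over non-UV skin, where 8.17% of all genes were lower. Cd3e and Cd3g were lower there, at -1.48 ± 0.44 (adjusted p = 0.00862) and -1.52 ± 0.43 (adjusted p = 0.00631), per the authors' deposited table. The part of these cells in the values of Fscn1, Epcam and Itgax was not tested.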

How the data were processed

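Skin RNA (RNeasy) went into stranded total RNA libraries, per the labels' protocols. The authors' tools were Trim Galore and DESeq2, with the build GRCm38 (mm10), per the submitters' processing notes. For the aligner, counter, annotation and design formula, the entry is: not given in the sources used here. Deposited by the authors were 4 tables, which per the file headers hold a log2 fold change, a Wald statistic (a score, the fold change over its SE), a p-value and a Benjamini-Hochberg adjusted p-value per gene. The depth of the libraries is unknown, and 0 columns of values per library went unused.

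Python 3.11.15 with pandas 2.3.3, numpy 2.4.6 and scipy 1.17.1 was used. In every table, symbols that had turned into dates, 25 of them, were removed. The SE came from dividing the log2 fold change by its Wald statistic, and intervals are normal at 95%. A gene was called at an adjusted p under 0.05, adjusted across all tested genes. GZ21T over placebo lesions is the deposited fold change with its sign turned. The table named for perilesional and lesional skin names lesional and back skin in its header. Of 1423 genes at exactly 0 in non-lesional over non-UV skin, 704 were positive and 0 negative in it. Of 1195 genes at exactly 0 in perilesional over non-lesional skin, 271 were negative in it. It was therefore used as lesional over non-UV skin.

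The 28 genes with a fold change but no p were the same in all 4 tables and the tested sets were nested, so 1 fit over all libraries was assumed. Contrasts with no table were derived as sums of deposited log2 fold changes. Lesional over perilesional skin and GZ21T lesions over non-lesional skin have an SE that follows from 3 deposited SEs if groups are independent. For the others the upper bound adds both variances. The negative binomial variance formula, with 1 dispersion per gene, was fitted to the 4 deposited SEs as an alternative. This alternative was chosen after seeing the data. It met them with a median deviation of 0.43% over tested genes and of at most 3.83% for the members. Derived p-values are normal tails, adjusted over genes with an adjusted p in lesional over non-UV skin. The derivation was run on simulated data with independent groups and SEs built from the same variances. That run checks the arithmetic and cannot test whether the groups are independent. GZ21T lesions over perilesional skin was added for the order of groups alone.

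The members and lists were chosen with earlier results of these data known. All members are named. Of each list up to 4 called genes with the smallest adjusted p, or else the 2 smallest, are named; Flt3l, Siglech, Ccr7 and Lamp3 were added after their values were seen. Coordinates are from GENCODE M21 and promoters from RefSeq on GRCm38.p6, in which all 10 members matched. One item is not reported here. Alternatives were other filters, centring, null spread, threshold and SE.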

Additional observations from a re-analysis of the deposited data

How the results depend on the processing

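No paired analysis was possible because the deposited tables hold no values per library, and for the same reason no replicate could be left out. The counts of members called moved under these alternatives and under no other that was run. With the null spread taken from all genes, 0 members were called in lesional over non-UV skin, where Fscn1 then had an adjusted p of 0.72 (2.5e-05 to 6.53e-05 under the other settings), and the calls over all genes went to 11 against 2785. That spread, 1.92, is taken from genes of which 18.3% were called. At an adjusted p under 0.1, 1 member, Fscn1, was called in GZ21T over placebo lesions, where 1092 genes were called in place of 393. With the larger deposited SE, and likewise with the variance formula, 1 member was called in lesional over non-lesional skin (Fscn1), 2 in perilesional over non-UV skin (Epcam and Fscn1) and 1 in GZ21T lesions over non-UV skin (Cd207). Without the filter on low counts GZ21T over placebo lesions had 209 genes called, and 0 members.

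Over all genes, the null spread gave 139 calls against 235 in non-lesional over non-UV skin, 1 against 17 in perilesional over non-lesional skin, 0 against 393 in GZ21T over placebo lesions and 21 against 81 in lesional over perilesional skin. It also gave 11 against 0 in GZ21T lesions over non-lesional skin, 41 against 95 in perilesional over non-UV skin and 163 against 58 in GZ21T lesions over non-UV skin. An adjusted p under 0.1 gave 30, 152, 1, 166 and 94 calls in perilesional over non-lesional, lesional over perilesional, lesional over non-lesional, perilesional over non-UV and GZ21T lesional over non-UV skin. The larger deposited SE gave 635, 1207 and 499, and the variance formula 726, 1253 and 573, in the last 3 of these contrasts. The largest deposited SE gave 53 in lesional over perilesional skin. Depth is unknown, and Batf3, Clec9a and Cd209a had SEs over 1 in every deposited table.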
